A study of Homo sapiens with 18 samples.

Results

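VMP1 is followed here through 18 libraries of nascent RNA, as the 1 row of 13051 that counts readthrough reads past the end of transcript ENST00000592790. The row was chosen by its values after imatinib against CTRLim, which were known from earlier results of these data. Those values are a description below and carry no test, and only the values after JTE-607 and KCl were tested. A readthrough read is a long read from chromatin whose 3′ end lies more than 100 nt past the last annotated exon of a gene, so that transcription had passed the site where the RNA is normally cleaved. All cells were K562, an established chronic myeloid leukemia line whose growth is driven by the Bcr-Abl1 kinase. Of the 12 markers of this line that were examined, 11 are in the table and all 11 had readthrough reads in untreated cells, 5 of them in each of the 6 untreated libraries.

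Each of 6 conditions had 3 libraries, described in the study as biological replicates. CTRL and CTRLim are both untreated cells, and CTRLim was prepared together with the imatinib libraries. KCl 45min is an osmotic shock with 110 mM KCl for 45 min. JTE 1h is 1 hour with 5 µM JTE-607, an inhibitor of the CPSF73 endonuclease that cuts the RNA at the poly(A) site. IM 1h and IM 18h are 1 and 18 hours with 1 µM imatinib, an inhibitor of Bcr-Abl1. All conditions share 1 cell line, so no value here speaks of other cells. By the share of reads that mapped there are 2 library sets, one of CTRL, KCl 45min and JTE 1h and the other of CTRLim, IM 1h and IM 18h, and a comparison across the sets cannot be told apart from this difference. The table holds 447434 readthrough reads in all, between 8422 and 57982 per library.

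VMP1 encodes a membrane protein of the endoplasmic reticulum that moves lipids between membrane leaflets and is needed to form autophagosomes. The gene of the oncogenic microRNA miR-21 overlaps its end on the same strand, and the primary miR-21 transcript is known to have a promoter of its own inside VMP1. RNA polymerase II that passes the end of VMP1 has therefore also transcribed the miR-21 hairpin, whichever promoter it came from.

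The counted region lies past MIR21, not before it. ENST00000592790 is annotated on GRCh38 at chr17:59837931-59842255, on the plus strand, as a transcript with a retained intron and 1 exon of 4325 nt. Only 3.54% of the 12704 transcripts of the table that were found in the annotation have a single exon, and 4.01% are annotated with a retained intron. It starts in intron 10 of the canonical VMP1 transcript, covers its exons 11 and 12, and ends at the same base. The MIR21 hairpin, at chr17:59841266-59841337, sits inside this exon, and inside exon 12 of the canonical transcript, the last of its 12 exons. The hairpin ends 918 nt before the end of the exon and 1018 nt before the readthrough boundary, the position 100 nt past the exon, beyond which 3′ ends are counted. Reads counted for VMP1 thus end at least 1018 nt past the hairpin, and the label of the row as lying upstream of the miR-21 gene holds for the start of VMP1 but not for the counted 3′ ends.

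Of the 20 annotated VMP1 transcripts, 10 end past MIR21. The mature miRNA and the sequence before these ends are shown because they fix where the counted reads lie relative to the miRNA and to the signals for cleavage. hsa-miR-21-5p, at chr17:59841273-59841294 (RefSeq, GRCh38.p14), matches positions 3343 to 3364 of ENST00000592790, and its seed, bases 2 to 8, is in capitals. In the other 2 lines, from GRCh38, the capitals mark the poly(A) signal AATAAA, searched on the plus strand in the last 50 nt of each transcript.
hsa-miR-21-5p: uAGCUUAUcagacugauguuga
signal before the end at position 59841551: tgaccacaAATAAATAAAggaaaactaagc
signal before the ends at positions 59842231 and 59842255: tggtatcactgtaAATAAAaagagggcctg
The first line holds 2 copies of AATAAA that overlap by 2 bases, and the later copy ends 21 nt before the end of 2 VMP1 transcripts, which lies 214 nt past MIR21. The other signal ends 11 nt before the end of 4 transcripts and 35 nt before the end that ENST00000592790 and the canonical transcript share. The ends between them, at 59841860 and 59841936, have neither AATAAA nor ATTAAA in that window. AATAAA is found in the last 50 nt of 60.4% of the 12704 transcripts, ATTAAA in 17.9% and either in 74.4%. By annotation, VMP1 transcripts thus end at several positions between the hairpin and the readthrough boundary. Cleavage at these positions was not measured, and the counts do not tell which isoform or promoter a read came from.

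**Figure D1:**
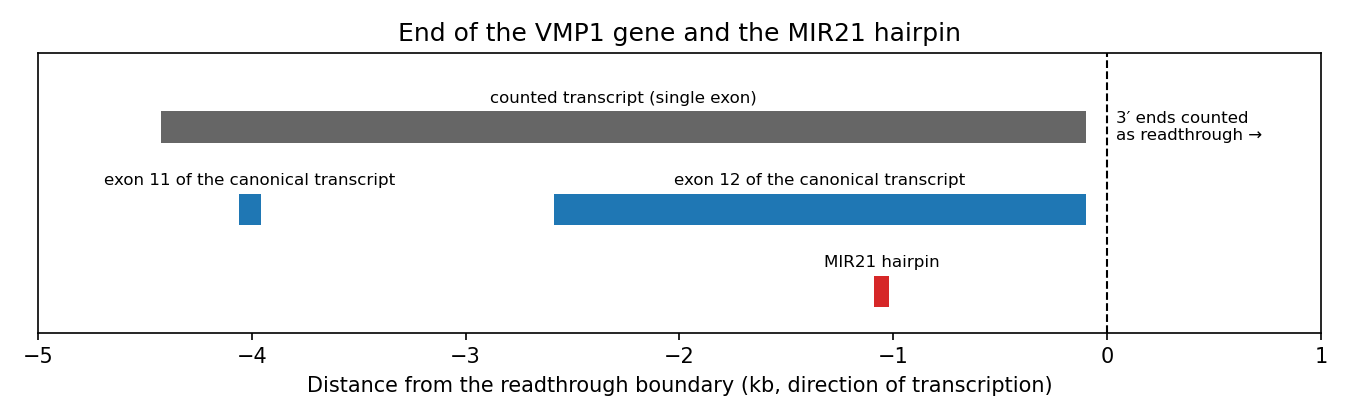
Map of the end of VMP1, with the distance from the readthrough boundary in kb on the x axis and one row each for the counted transcript, exons 11 and 12 of the canonical transcript and the MIR21 hairpin. The hairpin ends 1018 nt before the boundary (dashed line), and only 3′ ends to the right of it were counted.

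VMP1 was among the rows with many readthrough reads. Over the 18 libraries it had 322 reads, rank 145 of 13051, where the median transcript had 10 reads and 1200 had none. Levels are given as RPM, readthrough reads per 1000000 library reads. Its mean level was highest in CTRLim and lowest in IM 18h, while the lowest single library was KCl 45min 3, and with the reads of a group pooled KCl 45min (6.74 RPM) lay below IM 18h (7.57 RPM).

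In untreated cells, CTRL had 11, 28 and 4 VMP1 reads, or 30.5, 68.2 and 15.5 RPM, with a mean of 38.1 ± 27.2 RPM (SD, n = 3). CTRLim had 11, 38 and 55 reads, or 47.9, 70.4 and 111.7 RPM, with a mean of 76.6 ± 32.4 RPM (SD, n = 3). These 2 untreated groups overlapped, since CTRL 2 lay above CTRLim 1, and VMP1 ranked 93rd of all transcripts by its mean in CTRL and 50th in CTRLim. The highest CTRL library held 4.41 times the level of the lowest, and the exact 95% Poisson intervals of both, 45.3 to 98.6 RPM and 4.21 to 39.6 RPM, did not overlap. These intervals cover counting error only.

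After 1 hour of imatinib the libraries had 26, 23 and 24 reads, or 38.6, 40.1 and 29.9 RPM, with a mean of 36.2 ± 5.52 RPM (SD, n = 3). All 3 lay below the lowest CTRLim library, 47.9 RPM, but between the lowest and the highest CTRL library. After 18 hours the libraries had 6, 16 and 5 reads, or 6.38, 12.5 and 3.70 RPM, with a mean of 7.54 ± 4.52 RPM (SD, n = 3). All 3 lay below every untreated and every IM 1h library, and VMP1 ranked 1080th by its mean there.

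Hyperosmotic cells had 8, 1 and 3 reads, or 19.5, 3.19 and 2.84 RPM, with a mean of 8.50 ± 9.51 RPM (SD, n = 3). Libraries 2 and 3 lay below all CTRL libraries, and library 1 lay above CTRL 3. Cells with JTE-607 had 7, 19 and 37 reads, or 15.2, 36.9 and 32.2 RPM, with a mean of 28.1 ± 11.4 RPM (SD, n = 3). JTE 1h overlapped CTRL, with its lowest library just below the lowest of CTRL.

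From low to high, the mean levels ran from IM 18h through KCl 45min, JTE 1h, IM 1h and CTRL to CTRLim. Every pair of neighbours in this order overlapped. The steps from IM 18h to KCl 45min (0.965 RPM), from JTE 1h to IM 1h (8.08 RPM) and from IM 1h to CTRL (1.84 RPM) were smaller than the pooled SD of the groups, and those from KCl 45min to JTE 1h (19.6 RPM) and from CTRL to CTRLim (38.6 RPM) were larger.

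Counted against readthrough reads instead of all library reads, VMP1 took 11.4 ± 8.33 of 10000 readthrough reads in CTRL, and 19.5 ± 9.17 in CTRLim (SD, n = 3 each). After imatinib it took 8.26 ± 1.25 at 1 hour and 2.03 ± 1.20 at 18 hours (SD, n = 3 each). It took 3.48 ± 3.85 in KCl 45min and 6.07 ± 0.973 in JTE 1h (SD, n = 3 each). The groups with the lowest and the highest mean were the same on both scales. The readthrough share of all library reads itself differed between conditions, with means from 2.43% in KCl 45min to 4.51% in JTE 1h.

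**Figure D2:**
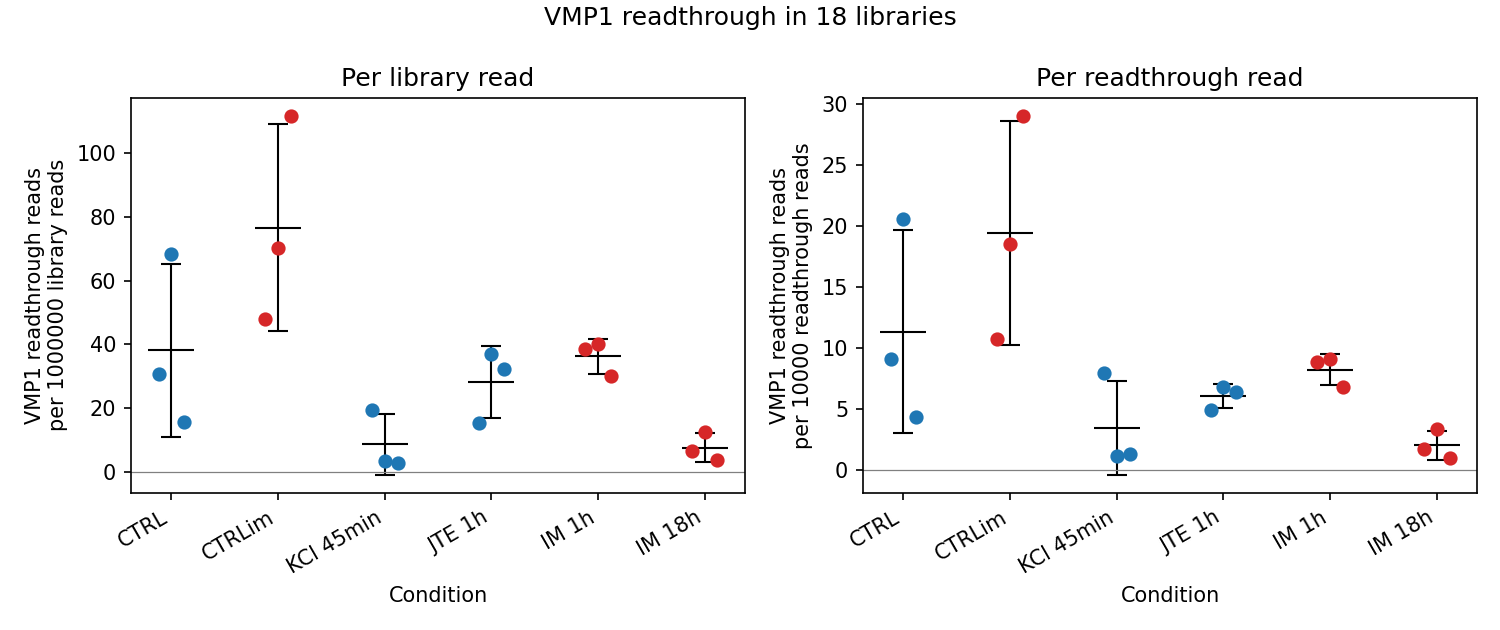
VMP1 readthrough reads in each library (points), per 1000000 library reads on the left and per 10000 readthrough reads on the right, by condition, with the mean and SD of 3 libraries (bars). Blue and red mark the 2 library sets. IM 18h has the lowest mean (7.54 RPM) and CTRLim the highest (76.6 RPM).

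Some replicate libraries were closer than others. CTRLim 2 and 3 agreed within sampling noise (chi-square per degree of freedom 1.11 over 319 transcripts with at least 20 reads), while CTRLim 1 differed from both (1.78 and 1.74). IM 1h 1 and 2 (1.01) and 1 and 3 (1.04) also agreed within sampling noise, and 2 and 3 differed slightly more (1.14). The other groups lay further from sampling noise than IM 1h. The pairs were at 2.2 to 2.8 in CTRL, 2.1 to 3.1 in KCl 45min, 2.0 to 5.3 in JTE 1h and 1.4 to 2.0 in IM 18h. JTE 1h 1 differed most from the other libraries of its group. With CTRLim 2 and 3 counted as 1 sample, the mean of CTRLim was 69.4 ± 30.5 RPM (SD, n = 2), and with IM 1h 1 and 2 counted as 1 sample, that of IM 1h was 34.6 ± 6.70 RPM (SD, n = 2). The single libraries of the 2 groups do not overlap, so averaging within a group could not make them overlap. The log2 fold changes with these libraries summed stand beside those below.

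Against CTRLim, the mean VMP1 level was 47.3% after 1 hour of imatinib and 9.83% after 18 hours. Fold changes are from edgeR, for genes with at least 30 reads in the 6 libraries of a comparison. Their SE is back-calculated from the edgeR F statistic, as the size of the log2 fold change over the square root of F. The log2 fold change was -1.19 (SE 0.247) for IM 1h and -3.38 (SE 0.364) for IM 18h, and -1.16 and -3.29 with the like libraries summed. Between the 2 imatinib times, IM 18h was at 20.8% of IM 1h, with a log2 fold change of -2.22 (SE 0.356), or -2.20 with the like libraries summed. VMP1 did not overlap between groups in any of these 3 comparisons, with the treated or later group lower. The same held for 5.47% of the 988 genes tested for IM 1h against CTRLim, 18.4% of 1386 for IM 18h against CTRLim and 26.3% of 1720 for IM 18h against IM 1h. Comparisons that share a group are not independent. The VMP1 fold change was the 11th lowest of 988, the 4th lowest of 1386 and the 9th lowest of 1720, a position that follows from how the row was chosen.

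One library and the choice of control mattered to the size at 1 hour. Without CTRLim 3, the highest library, the log2 fold change of IM 1h was -0.82, and against CTRL instead of CTRLim it was -0.20 (SE 0.359). For IM 18h the fold change stayed below -2 in both cases, at -3.00 without CTRLim 3 and -2.39 against CTRL. CTRL and the imatinib libraries belong to different library sets, so these values mix treatment and set.

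The median log2 fold change over all genes tested was 0.19 for IM 1h against CTRLim, -0.01 for IM 18h against CTRLim and -0.30 for IM 18h against IM 1h. Relative to these medians VMP1 was at -1.38, -3.37 and -1.93. No reads that end within the gene were analysed here. A change in transcription of VMP1 or MIR21 and a change in cleavage cannot be told apart.

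JTE-607 and KCl lie outside the imatinib comparisons that chose VMP1 and were tested. Earlier results of these data were known, so these p-values are not fully independent of that choice. The mean after JTE-607 was 73.9% of that in CTRL. The log2 fold change was -0.46 (SE 0.570, approximate 95% interval -1.57 to 0.66), which did not pass the test (edgeR, adjusted p = 0.805), and an exact permutation test over libraries, two-sided, gave p = 0.8, where the smallest p for 3 against 3 is 0.1. In this comparison 0.103% of 969 genes were called at an adjusted p under 0.05. The median gene was at 0.49, so that VMP1 was at -0.95 relative to it. Without CTRL 2, the library with most VMP1 reads of its group, the fold change was 0.28. The libraries with JTE-607 were uneven. The readthrough share of library reads was 3.06% in JTE 1h 1, below every CTRL library, and 5.40% and 5.05% in JTE 1h 2 and 3. Without JTE 1h 1, 69 of 840 genes were called, and VMP1 was at -0.22 (edgeR adjusted p = 0.771). No change of VMP1 readthrough was detected with JTE-607, and the interval spans both directions. This interval uses a normal approximation and can be too narrow with 3 libraries per group.

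After KCl the mean was 22.3% of that in CTRL. The log2 fold change was -2.38 (SE 0.618, edgeR adjusted p = 0.00274), past the threshold, as was the case for 25.1% of the 378 genes tested, of which the lower ones were 20.9% of all tested. VMP1 had the 35th lowest fold change of these, and was at -1.99 relative to the median gene, which was at -0.39. An exact permutation test over libraries, two-sided, gave p = 0.2, where 0.1 is the smallest possible, since KCl 1 lay above CTRL 3. VMP1 reached the minimum of 30 reads through CTRL, with 43 reads there and 12 in KCl 45min, so that this call is no support for a fall on its own. With a minimum of 1 read the log2 fold change was -2.36 (edgeR adjusted p = 0.0139).

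The call after KCl rested on few reads and was lost under several settings. Without KCl 3 the adjusted p was 0.119 (edgeR, log2 fold change -1.69), without KCl 2 it was 0.0571 (-2.17), and without CTRL 2 VMP1 had fewer than 30 reads and was not tested. With readthrough reads as the library size the adjusted p was 0.0511 (-1.89), and DESeq2 with its own size factors gave 0.114 (-1.89).

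**Figure D3:**
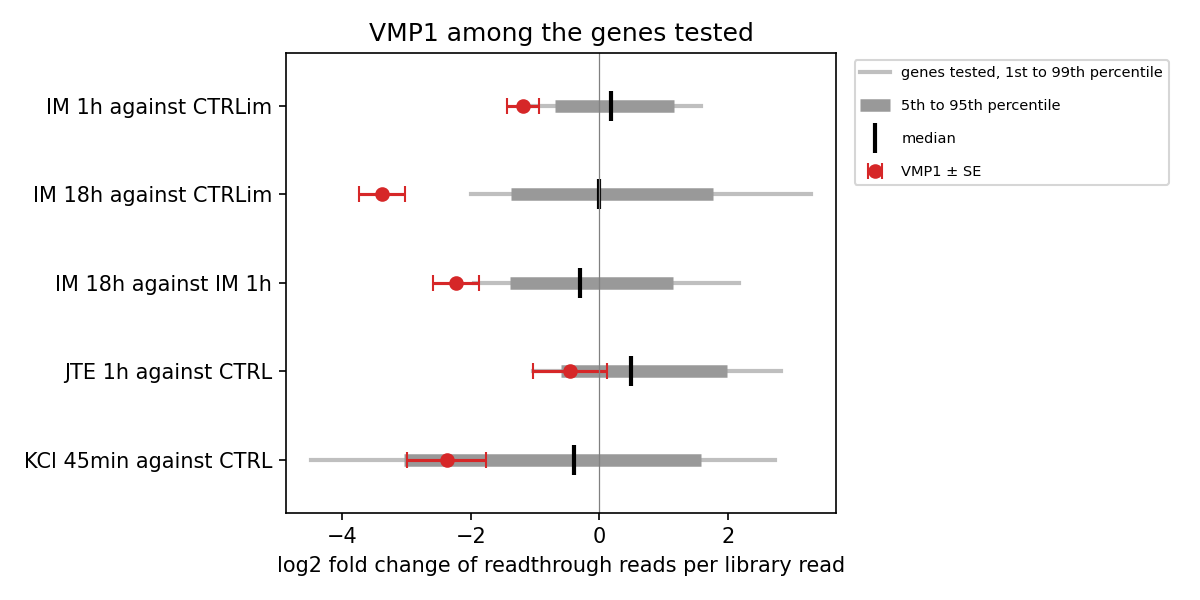
log2 fold change of VMP1 (red, with SE) in 5 comparisons, over the range of all genes tested (light grey, 1st to 99th percentile, dark grey, 5th to 95th percentile, black, median). VMP1 lies below the median in each, and its imatinib values, from -3.38 to -1.19, chose the row.

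The genes next to VMP1 had few readthrough reads. The 3 nearest transcripts of the table on the side of its start, of YPEL2, DHX40 and PTRH2, had 3, 5 and 4 reads over all 18 libraries. TUBD1, a tubulin gene on the minus strand whose end faces that of VMP1 17.2 kb away, had 7. RPS6KB1, which encodes the S6 kinase of the mTOR pathway, is the next protein-coding gene on the same strand, 50791 nt past the end of VMP1. It had 42 reads, with means of 5.61 ± 4.87 RPM in CTRLim, 5.73 ± 3.78 RPM after 1 hour and 4.19 ± 1.03 RPM after 18 hours of imatinib (SD, n = 3 each), and was too sparse for a test in any comparison. None of the 6 neighbours reached 30 reads in a comparison, so the imatinib values of VMP1 cannot be set beside tested values of the genes around it. MIR21 has no row of its own.

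VMP1 was also set beside other genes with a miRNA gene at their end. Of the 12704 transcripts, 79 had one in their last exon or within 5 kb past it, 33 of them in the last exon, and 23 of the 79 had at least 30 reads. VMP1 had the second most reads of these 79. H2AC12, a histone H2A gene with MIR3143 64 nt past its end, had the most, 676 reads. Its mean was 93.8 ± 16.2 RPM in CTRLim, 84.5 ± 5.43 RPM at 1 hour and 42.4 ± 5.13 RPM at 18 hours of imatinib (SD, n = 3 each). H2AC12 fell at 18 hours (log2 fold change -1.13, SE 0.253, edgeR adjusted p = 0.00130) and did not pass the test at 1 hour (-0.13, SE 0.217). Of all genes tested, 8.95% fell at 18 hours against CTRLim and 14.1% were called.

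Of the 3 other genes of this kind with most reads, 1 fell with imatinib, at 18 hours, beside that 8.95% of all genes. UCK2, a uridine-cytidine kinase gene with MIR3658 in its last exon, was at 13.4 ± 1.34 RPM in CTRLim and 3.77 ± 1.68 RPM in IM 18h (SD, n = 3 each), a log2 fold change of -1.74 (SE 0.553, edgeR adjusted p = 0.0245). PTMA, the prothymosin alpha gene with MIR1244-1 in its last exon, was at 13.5 ± 8.91 and 8.58 ± 3.67 RPM, a difference that did not pass the test (edgeR adjusted p = 0.539). IMPDH2, a gene of guanine nucleotide synthesis with MIR191 and MIR425 past its end, was at 7.98 ± 3.95 and 6.70 ± 0.332 RPM (edgeR adjusted p = 0.720). PTMA has many near-identical copies, which makes its counts uncertain. Whether VMP1 differs from these genes was not tested.

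The profile of VMP1 over all 18 libraries was most like that of C1QBP, H3C15, H2BC17, NDUFAF3 and RPL41, among 911 other transcripts with at least 100 reads. The Pearson correlations of log2 reads per library read, with 0.5 reads added, were 0.88, 0.84, 0.82, 0.82 and 0.82, and the median over the 911 was 0.33. C1QBP encodes a mitochondrial matrix protein, NDUFAF3 an assembly factor of respiratory complex I, RPL41 a ribosomal protein, and H3C15 and H2BC17 are histone genes with near-identical copies. The points share libraries, depth and library set, and the likeness carries no test.

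These 5 transcripts had lower mean levels in KCl 45min and in IM 18h than in either untreated group, as did VMP1. That likeness follows from how they were chosen and is no result about these genes. C1QBP was at 19.8 ± 7.84 RPM in CTRLim, 13.3 ± 4.06 RPM in IM 1h, 4.53 ± 2.15 RPM in IM 18h and 1.94 ± 2.58 RPM in KCl 45min (SD, n = 3 each). RPL41 was at 110.6 ± 22.9 RPM in CTRLim and 108.9 ± 9.62 RPM in IM 1h, and at 33.4 ± 5.74 RPM in IM 18h (SD, n = 3 each). The choice of the 5 depended on the measure. With Spearman correlation, or with 2 reads added, 2 of them remained among the 5, and none of them was among the 5 most like VMP1 when only the 9 libraries of CTRLim, IM 1h and IM 18h were used.

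**Figure D4:**
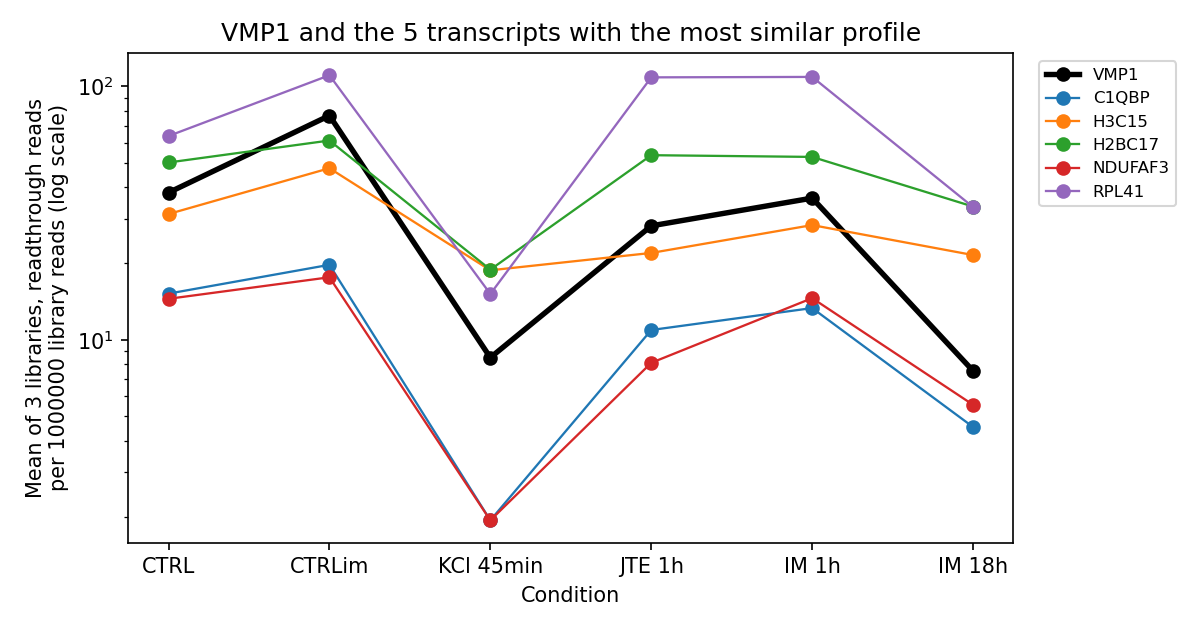
Mean readthrough reads per 1000000 library reads (log scale, 3 libraries per condition) of VMP1 (black) and of the 5 transcripts with the highest correlation with it. VMP1 is at 76.6 RPM in CTRLim and 7.54 RPM in IM 18h.

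Genes that work with VMP1 in autophagosome formation had too few readthrough reads to be set beside it. Of 42 such genes 36 are in the table, none had as many reads as VMP1, and the highest was RB1CC1, a subunit of the ULK1 kinase complex, with 83 reads. None was tested for IM 1h against CTRLim or KCl 45min against CTRL. For IM 18h against CTRLim 4 were tested and none was called by edgeR or had an unadjusted p under 0.05, against 14.1% of all genes called there. The median log2 fold change of these 4 was 0.71 beside -0.01 for all genes. For IM 18h against IM 1h 4 were tested and none was called, against 18.3% of all genes, with 1 at an unadjusted p under 0.05, and for JTE 1h against CTRL 1 was tested and not called. The list median for IM 18h against IM 1h was 0.78 beside -0.30 for all genes. DESeq2 calls were not counted for the gene lists.

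The list of STAT5 and Bcr-Abl1 target genes, chosen with earlier results known and so no independent evidence, held genes that fell after imatinib. At 1 hour 3 of the 7 tested fell and none rose, with a median log2 fold change of -0.68 beside 0.19 for all genes, where 1.52% of all genes were called and 1.32% fell. PIM1, a survival kinase gene, went from 79.8 ± 2.74 to 6.55 ± 2.98 RPM (SD, n = 3 each), a log2 fold change of -3.50 (SE 0.346, edgeR adjusted p = 1.00e-20). CISH, a feedback inhibitor of STAT5, went from 37.8 ± 5.72 to 2.82 ± 1.01 RPM (-3.57, SE 0.491, edgeR adjusted p = 1.30e-10). ID1, an inhibitor of basic helix-loop-helix factors, went from 35.8 ± 9.98 to 2.15 ± 1.88 RPM (-4.07, SE 0.533, edgeR adjusted p = 1.38e-11).

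At 18 hours 5 of the 6 tested genes of this list were lower than in CTRLim and none was higher, where 8.95% of all genes fell. The median log2 fold change of the list was -1.5 beside -0.01 for all genes. For IM 18h against IM 1h, with 5 tested, it was 0.0004 beside -0.30. PIM1 stood at 22.4 ± 8.52 RPM (SD, n = 3), higher than at 1 hour, as were 4.19% of all genes (log2 fold change 1.73, SE 0.414, edgeR adjusted p = 0.00112), while VMP1 was lower at 18 hours than at 1 hour. PIM1 had 82 reads in IM 18h and 14 in IM 1h. It reached the minimum of 30 reads there through IM 18h, so this call is no support for a rise on its own. MYC, which encodes a growth-promoting transcription factor, fell from 67.0 ± 13.7 RPM in CTRLim to 27.3 ± 2.13 RPM in IM 18h (SD, n = 3 each, log2 fold change -1.23, SE 0.282, edgeR adjusted p = 0.00147). At 110 mM KCl, MYC and PIM1 fell and EGR1, an immediate early gene, rose, among 6 tested, where 25.1% of all genes were called and 20.9% fell. MYC had 3 reads in KCl 45min and 55 in CTRL, a ratio of 0.0316 per library read (exact 95% interval 0.00631 to 0.0972). EGR1 had 59 reads in KCl 45min and 1 in CTRL, a ratio of 34.1 (5.89 to 1371), and these intervals cover counting error only. MYC, PIM1 and EGR1 each reached the minimum of 30 reads through the group where they were higher, as did PIM1, CISH and ID1 in CTRLim, so the share of called genes is no support for a direction of the list. With JTE-607 none of 6 tested passed (edgeR), with 1 at an unadjusted p under 0.05. The list median was 0.24 beside -0.39 for all genes with KCl, and -0.59 beside 0.49 with JTE-607.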

How the data were processed

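Per the labels and the study's methods, adapters were removed with cutadapt and reads were mapped with minimap2 to GRCh38.p14, and the authors removed duplicates by molecular identifier, polyadenylated reads, multiply mapped reads and splicing intermediates. The deposited counts are whole readthrough reads per transcript and library, neither normalized nor pooled. Library size was the number of reads that the study lists after these filters. VMP1, the lists and the tests were chosen with earlier results of these data known. Named are VMP1, its 3 nearest transcripts on each side, the 5 most correlated transcripts, up to 5 transcripts with a miRNA gene at their end and up to 4 called genes per list and comparison. edgeR 4.0.16 in R 4.3.3 (glmQLFit, glmQLFTest, minimum 30 reads, Benjamini-Hochberg over all genes tested, adjusted p under 0.05) was the main test and DESeq2 1.42.0 an alternative. Both were run on simulated counts with the same dispersion in every comparison, and pass limits were set for edgeR only. The noise between replicates of these libraries differed between groups, so that run does not show how either tool performs on them. Positions are from GENCODE 44. Python 3.11.15, scipy 1.17.1, pandas 2.3.3 and numpy 2.4.6 were used.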

Additional observations from a re-analysis of the deposited data

How the results depend on the processing

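In every alternative run, VMP1 was lower in IM 1h and IM 18h than in untreated cells and in IM 18h than in IM 1h. The log2 fold change moved by more than the spread between replicates only with CTRL in place of CTRLim, to -0.20 (SE 0.359) for IM 1h and -2.39 for IM 18h. With all 6 untreated libraries as control IM 1h was at -0.73 (SE 0.406), just inside that spread, and IM 18h at -2.95. The size of the difference at 1 hour thus depended on the untreated libraries used. Leaving out 1 library gave -1.33 to -0.82 for IM 1h and -4.00 to -3.00 for IM 18h against CTRLim, and -2.85 to -1.85 for IM 18h against IM 1h.

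For JTE 1h against CTRL, leaving out 1 library gave -0.80 to 0.28, and differences of mean RPM of -21.2 to 5.16, the positive values without CTRL 2. With CTRLim as control the log2 fold change was -1.44. That value carries no test, since the values of CTRLim chose VMP1 and it belongs to the other library set. With CTRL alone as control, the adjusted p was 0.604 to 0.999 over the alternatives (edgeR and DESeq2). For KCl 45min against CTRL the call was lost with readthrough reads as library size (-1.89) and with DESeq2 and its own size factors (-1.89). Leaving out 1 library gave -3.65 to -1.69. With CTRL alone as control, the adjusted p was 0.000435 to 0.119 over the alternatives (edgeR and DESeq2). With CTRLim as control the log2 fold change was -3.40, which carries no test for the same reasons. The cause was not tested.

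Counts of called genes moved by over 1.5 times as follows. For IM 1h against CTRLim, 15 became 9 with at least 1 read, 7 and 4 with DESeq2 with its own size factors and with library totals, 5 with all 18 libraries in 1 fit, 202 with CTRL and 2 with all 6 untreated libraries as control, and 7 with like libraries summed, an alternative chosen after seeing the data. For IM 18h against CTRLim, 196 became 78 and 105 with DESeq2 and 113 with all 18 libraries. For IM 18h against IM 1h, 315 became 203 with TMM scaling, 63 and 108 with DESeq2 and 112 with all 18 libraries. For JTE 1h, 1 became 0 with readthrough reads as library size, with TMM and with at least 1 read, 30 with all 18 libraries, 93 with CTRLim and 23 with all untreated libraries as control. For KCl 45min, 95 became 256 with at least 10 reads, 47 and 62 with DESeq2, and 241 and 274 with CTRLim and all untreated libraries. Leaving out 1 library gave 8 to 22, 116 to 189, 174 to 273, 0 to 69 and 41 to 75 genes in these 5 comparisons.

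Whether replicate numbers pair the libraries was not clear. For numbers 1, 2 and 3, same-numbered libraries deviated together with correlations of 0.244, 0.003 and 0.228 for JTE 1h against CTRL. For KCl 45min against CTRL they were 0.212, 0.024 and 0.211. With imatinib they lay between -0.042 and 0.074, though in IM 18h against CTRLim the own number matched best for all 3. The main fits used no pairing. With the replicate block VMP1 had log2 fold changes of -1.14, -3.35, -2.28, -0.36 and -2.05 in the same order, and 4 genes were called for JTE 1h.

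VMP1 had 12 reads in KCl 45min and 27 in IM 18h, and in KCl 45min the SD between libraries (9.51 RPM) was larger than the mean (8.50 RPM). A window of 10 kb in place of 5 kb gave 130 transcripts with a miRNA gene at their end.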

Other observations

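Genes of miRNA processing were measured on the same reads. All 13 of the list are in the table, and VMP1 had more reads than all but 2 of them. None of the 5 tested was called for IM 1h against CTRLim (edgeR, none at an unadjusted p under 0.05). DDX5, an RNA helicase of the Drosha complex, was the 1 of 4 tested that fell for IM 18h against CTRLim, from 155.9 ± 31.8 to 86.7 ± 10.2 RPM (SD, n = 3 each, log2 fold change -0.82, SE 0.229, edgeR adjusted p = 0.0102), where 14.1% of all genes were called. For IM 18h against IM 1h, DDX5 (-0.66, SE 0.155, edgeR adjusted p = 0.000738) and TARBP2, a partner of Dicer (-1.70, SE 0.522, edgeR adjusted p = 0.0134), fell among 5 tested. Of all 1720 genes tested there, 18.3% were called and 243 fell. TARBP2 had only 12 reads in IM 18h and 23 in IM 1h. With KCl, DDX17, another helicase of the Drosha complex, fell among 3 tested (-1.75, SE 0.597, edgeR adjusted p = 0.0232), where 25.1% were called and 20.9% fell. DDX17 had 15 reads in KCl 45min and 30 in CTRL. It reached the minimum of 30 reads through CTRL, so this call is no support for a fall on its own. With JTE-607 none of 4 passed (edgeR, none at an unadjusted p under 0.05).

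Known targets of miR-21 were nearly all too sparse. Of 15 genes 12 are in the table, and 1, the antiproliferative gene BTG2, was tested with imatinib at 18 hours. It rose from 1.82 ± 1.60 RPM in IM 1h to 8.81 ± 3.47 RPM in IM 18h (SD, n = 3 each, log2 fold change 2.05, SE 0.655, edgeR adjusted p = 0.0178), on 4 and 30 reads. Of all genes tested there, 18.3% were called and 4.19% were higher. BTG2 reached the minimum of 30 reads through IM 18h, so this call is no support for a rise on its own. For IM 18h against CTRLim its log2 fold change was 2.31, which did not pass the test after adjustment (edgeR, unadjusted p under 0.05). Readthrough reads do not measure the mRNA on which a miRNA acts.

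ENSG00000267318, the third neighbour past the end of VMP1, 98.7 kb away on the plus strand, had 3, 1 and 3 readthrough reads in the libraries of KCl 45min and none in the other 15. It had too few reads for a test.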
